A study of Mus musculus with 12 samples.

Results

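The comparison described here is the change between day 7 and day 9 in the arrays labelled +Dox, 2 arrays at each day, in mouse embryonic stem (ES) cells of the line rtTA-Dmrt5 that were differentiating towards neural cells. These 4 arrays, of 12 in the series, were chosen by their labels alone. In this line the rtTA activator, together with doxycycline (Dox), drives a transgene of Dmrt5. That is an older name of Dmrta2, which codes for a DM-domain transcription factor known from progenitors of the cortex and the ventral midbrain. The cells grew as a monolayer in the serum-free medium N2B27. Dox was given from day 5, so the cells had 2 days of Dox at the first harvest and 4 days at the second. The same 2 days in the same line without Dox, on 2 and 2 other arrays, served as the reference. The remaining 4 arrays, the parental rtTA line at day 7 without and with Dox, entered only the estimate of the spread. The labels do not say whether the line is 1 clone, or whether the 2 samples of a group came from separate cultures, so each p-value measures the spread between such pairs of samples, which may be technical.

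In an N2B27 monolayer, ES cells leave pluripotency, pass through a stage like the neural plate and become neural progenitors, which divide and then give rise to neurons and later to glia. Proneural factors of the basic helix-loop-helix (bHLH) family push progenitors to become neurons, while Notch signalling holds neighbouring cells back as progenitors. Young neurons then switch on genes of the cytoskeleton, of synaptic release and of a transmitter. Secreted Wnt, Fgf and Bmp factors set which region of the brain the progenitors belong to.

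Each value below is a log2 value per gene, from which the probe set's median across all 12 arrays was taken off, so it gives differences between arrays and no level. A change is the mean at day 9 minus the mean at day 7 in log2 units, given with its standard error (SE) from the fit, with 2 arrays per day. A gene passed the test when its p-value, adjusted by the Benjamini-Hochberg method over all 18193 genes tested, was under 0.05, and only such genes are said to have risen or fallen. In bulk RNA, fewer cells of a type and less RNA per cell cannot be told apart.

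Dmrta2 itself did not pass in the main fit. It did pass in a fit of only the genes with a log2 level of at least 8, read from the spacing of the deposited numbers. Its value was -0.14 and -0.95 on the arrays labelled +Dox at day 7 and -1.07 and -1.92 at day 9. Without Dox it was 1.91 and 1.85 at day 7 and 1.07 and 1.16 at day 9. Both groups labelled +Dox therefore lay below the same day labelled -Dox, although the label names an induced transgene. The change with Dox was -0.95 ± 0.33 (SE), adjusted p = 0.0821, and the change without Dox was -0.76, adjusted p = 0.163. Without replicate 1 of day 9 the change with Dox was -1.37 and passed. Dmrta2 had 1 probe set, and the sources used here do not say where it lies relative to the transgene, so it may not see it. With Dox and without Dox below mean the arrays so labelled.

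Control probe sets and replicate spread were not the same at both days. The mean of 18 probe sets for the hybridisation spike-ins, transcripts added at a fixed amount, was -0.34 and -0.02 at day 7 with Dox and -0.79 and -0.66 at day 9 with Dox, a difference of -0.55 against -0.05 without Dox. The 27 probe sets of the polyA spike-ins differed by -0.03 with Dox and -0.03 without. The difference between the 3′ and 5′ control probe sets of Actb, which follows RNA quality, rose by 0.25 between the days with Dox, and that of Gapdh by 0.14, against -0.08 and -0.02 without Dox. The 2 day 9 arrays labelled +Dox also lay farthest apart of all 6 pairs, with a median absolute difference of 0.163 per gene against 0.099 for day 7 with Dox. The part of these differences in the results below was not tested.

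Between day 7 and day 9 with Dox, 2950 of 18193 genes passed, which is 16.2%. Of these, 1823 rose (10% of genes) and 1127 fell (6.19%), so 61.8% of the called genes were higher at day 9. Most changes were small, with a median absolute change of 0.57 among the called genes. A change of at least 2-fold was reached by 327 genes that rose, 1.80% of genes, and 83 that fell, 0.456%. The 2 arrays of day 9 did not overlap those of day 7 in 10373 genes, 57.0% of all genes tested. The count fell with each of the 4 arrays left out in turn, and fell further without a day 7 array than without a day 9 array. Leaving out an array also changes the estimate of the spread, so the counts do not show which arrays the calls rest on. In the lists of genes used below, 269 of 821 measured genes passed, and 139 of these passed with each of the 4 arrays left out in turn. Of the genes named below as changed with Dox, Hes5 passed with 0 of the 4 arrays left out, and Unc13a, Pax6, Pou5f1, Calb1, Il17rd, Bmp4, Pla2g7, Mcoln3, Cntn6 and Shox2 with 1. Chgb and Nr2e1 passed with 2 of them, and Lfng, En1 and Mki67 with 3.

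The 12 largest rises were led by genes of neuronal surfaces and synapses. Chl1, a neural cell adhesion molecule of the L1 family, was at -0.05 and -0.69 at day 7 and at 2.61 and 2.95 at day 9. That is a change of 3.15 ± 0.23 (SE), 8.88-fold, adjusted p = 6.94e-05, although 1 of its 4 probe sets changed by -0.10. Cbln2, a secreted organiser of synapses, was at -2.98 and -3.04 at day 7 and at 0.03 and -0.01 at day 9, a change of 3.02 ± 0.16 (SE), 8.11-fold, adjusted p = 2.07e-05. Both genes changed by a like amount without Dox, Chl1 by 3.38 and Cbln2 by 2.88. Gjd2, which codes for a connexin of electrical synapses, rose by 2.26 ± 0.23 (SE), from -0.06 and -0.01 to 2.20 and 2.26. Lrrn3, a leucine-rich repeat protein of neuronal membranes, was at -1.55 and -1.49 at day 7 and at 0.80 and 0.68 at day 9, a rise of 2.25 ± 0.12 (SE). Nts, the precursor of the neuropeptide neurotensin, was at -1.78 and -1.21 and then at 0.93 and 0.41, a rise of 2.17 ± 0.26 (SE). The 12 rises, and the 12 falls below, were taken only from genes whose day 9 arrays did not overlap the day 7 arrays. That separation was therefore fixed by the choice.

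The other large rises were in secreted or signalling genes and in a gene of the eye field. Inhbb, which codes for the beta B chain of activin B, was at 0.85 and 0.68 at day 7 and at 2.99 and 3.11 at day 9, a rise of 2.29 ± 0.13 (SE), 4.88-fold, adjusted p = 3.18e-05. Without Dox it rose by 0.55. Fstl5, a gene of the follistatin-like family, was at -0.99 and -0.73 and then at 2.13 and 1.95, a rise of 2.90 ± 0.27 (SE). Mab21l1, a gene needed for the eye, rose by 2.83 ± 0.21 (SE), from -1.89 and -2.19 to 0.56 and 1.02. Its day 7 values with Dox lay far below those without Dox, which were 1.16 and 1.13, and its day 9 values with Dox were still below the 2.17 and 2.33 seen without Dox. Igfbp1, which codes for a binding protein of insulin-like growth factors, rose by 2.24 ± 0.29 (SE), and by 2.10 without Dox. E130114P18Rik rose by 2.19 ± 0.10 (SE), and by 2.43 without Dox.

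A pair of stomach genes was among these 12 rises. Gkn1 and Gkn2 code for gastrokines, secreted proteins of the stomach lining. Gkn1 was at 0.14 and 0.12 at day 7 and at 3.40 and 2.36 at day 9, a rise of 2.75 ± 0.29 (SE). Gkn2 was at 0.04 and -0.17 and then at 2.30 and 2.14, a rise of 2.29 ± 0.19 (SE), while without Dox it was at 0.18 and 0.38 at day 9. The probe sets of both lay in the class of low levels, a median log2 level of 2 to 4, read from the spacing of the deposited numbers.

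**Figure D1:**
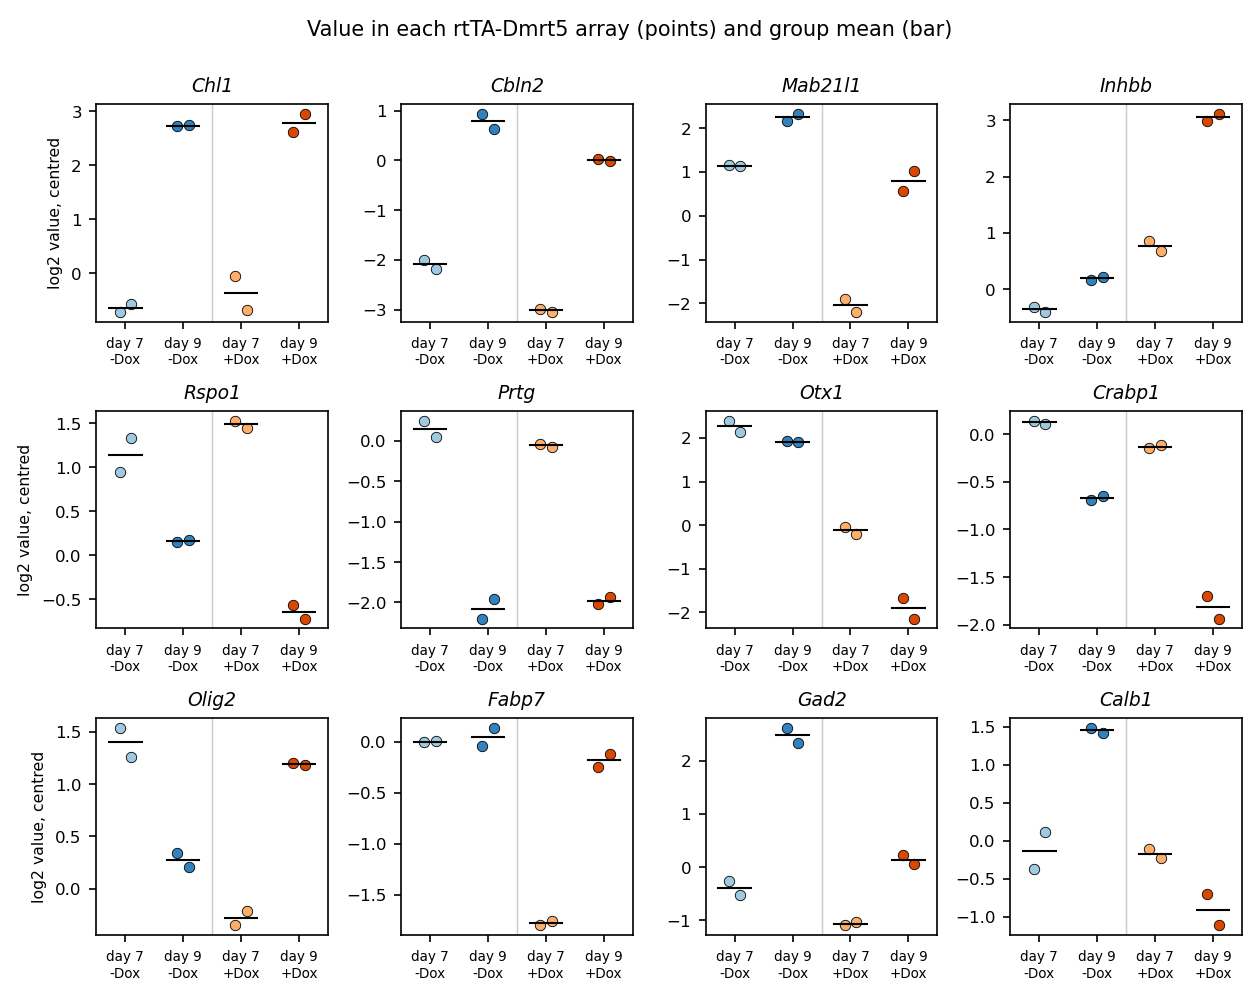
Centred log2 value of 12 genes on each of the 8 rtTA-Dmrt5 arrays, by day and Dox label; points are arrays and bars are the means of 2. Chl1, Cbln2 and Prtg move by a like amount with and without Dox, Inhbb rises by 2.29 with Dox and 0.55 without, and Olig2 rises with Dox (1.47) while it falls without (-1.12).

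The 12 largest falls held Wnt pathway and patterning genes. Rspo1, a secreted enhancer of Wnt signalling found in the roof plate and cortical hem, was at 1.53 and 1.45 at day 7 and at -0.57 and -0.72 at day 9, a fall of -2.13 ± 0.17 (SE), 4.38-fold, adjusted p = 0.000134. Wnt5b, a ligand of the Wnt family, was at 1.59 and 1.43 and then at -0.04 and -0.55, a change of -1.80 ± 0.17 (SE). Otx1, a homeobox gene of the forebrain and midbrain, was at -0.04 and -0.20 and then at -1.67 and -2.14, a change of -1.78 ± 0.16 (SE). Dmrt3, a relative of Dmrta2 in the dorsal forebrain, was at 0.56 and 0.36 and then at -1.10 and -1.31, a change of -1.67 ± 0.20 (SE). Without Dox, Otx1 stayed between 1.90 and 2.39 on all 4 arrays and Dmrt3 between 1.05 and 1.75, so both days with Dox were lower than both days without it.

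Other falls were in genes of early neural tissue. Prtg, protogenin, a surface protein of the young neural tube, was at -0.04 and -0.08 and then at -2.02 and -1.94, a change of -1.92 ± 0.11 (SE), and it changed by -2.22 without Dox. Crabp1, which codes for a binding protein of retinoic acid, changed by -1.69 ± 0.09 (SE), from -0.15 and -0.11 to -1.70 and -1.94. Metrn, meteorin, a secreted factor of neural progenitors and glia, changed by -1.68 ± 0.09 (SE), from -0.07 and -0.15 to -1.76 and -1.82. Mylk, which codes for a myosin light chain kinase, changed by -1.79 ± 0.08 (SE) with Dox and by -2.72 without.

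The last 4 of the 12 falls were Defa31 (-2.11), 4930481B07Rik (-1.86), Rab26os (-1.79) and Wdr38 (-1.76). Defa31 belongs to the alpha-defensins, a family of near-identical genes, so which member was measured is uncertain. The 2 day 9 arrays for 4930481B07Rik, at -1.27 and -2.32, lay a full log2 unit apart. All 24 genes passed with each of the 4 arrays left out in turn.

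**Figure D2:**
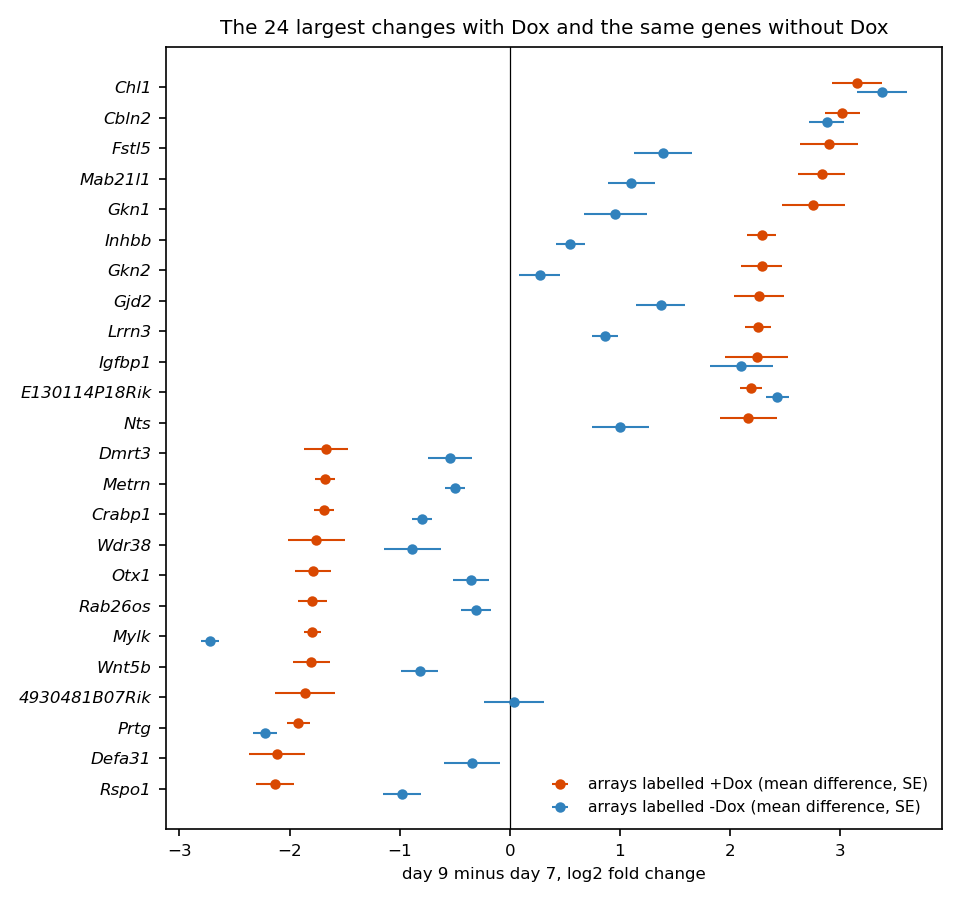
Change from day 7 to day 9 (log2 units, mean of 2 arrays minus mean of 2, bars are SE) of the 12 largest rises and the 12 largest falls with Dox, in red, and of the same genes without Dox, in blue. Chl1, Cbln2, Igfbp1, E130114P18Rik and Prtg change by a like amount in both, while Gkn2 (2.29 against 0.27) and 4930481B07Rik (-1.86 against 0.04) do not. The genes were chosen for the red values.

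Most genes of the neuronal cytoskeleton and of axon growth rose. Of 22 measured, 17 rose and 0 fell, with a median change of 0.75 against 0.01 for all genes. Each count of a list with Dox, here and below, stands beside the 10% of all genes that rose and the 6.19% that fell. Each count without Dox stands beside the 7.88% that rose and the 7.11% that fell without Dox. For differences between the changes the shares of all genes were 1.43% positive and 0.995% negative. The lists were chosen with earlier results of these data known, so a higher share in a list is no independent support. The same holds for counts of differences between the changes. Without Dox 18 rose and 0 fell, with a median of 0.63, and the test of the difference between the changes with and without Dox was passed by 0 of 22. Stmn4, a stathmin that binds tubulin, rose by 1.33 ± 0.15 (SE), from -0.99 and -1.19 to 0.43 and 0.04. Mapt, which codes for the microtubule protein tau, was at -0.98 and -0.93 and then at 0.42 and 0.21. Dcx, doublecortin of migrating neurons, was at -0.86 and -1.04 and then at 0.26 and 0.37, though 1 of its 4 probe sets changed by -0.58. Gap43, a protein of growing axons, was at -1.39 and -1.35 and then at -0.30 and -0.16. On the mean of the list, both day 9 arrays with Dox (-0.08 and -0.14) lay below both day 9 arrays without Dox (0.34 and 0.37), as both day 7 arrays with Dox (-0.70 and -0.80) lay below those without (-0.32 and -0.30).

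Most genes of synaptic vesicle release and of secretory granules rose too. Of 26 measured, 17 rose and 0 fell with Dox (median 0.67), and 21 rose and 0 fell without it (median 0.70). Scg2, secretogranin II of dense-core granules, was at -1.71 and -1.55 at day 7 and at -0.23 and -0.49 at day 9, a rise of 1.27 ± 0.20 (SE). Syn1, the vesicle protein synapsin I, was at -0.48 and -0.66 and then at 0.71 and 0.42, a rise of 1.13 ± 0.12 (SE). Syt4, a synaptotagmin, and Rab3c, a small GTPase of vesicles, rose by 0.80 and 0.90 with Dox and by 1.97 and 1.92 without. The differences, -1.17 and -1.02, passed (adjusted p = 0.0131 and 0.0235), that of Syt4 with 6 of the 8 arrays left out in turn and that of Rab3c with 2 of the 8.

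Some genes that changed have a known control site in the promoter. The cyclic AMP response element (CRE) binds factors of the CREB family, which act on genes of neuropeptides and secretory granules, and the RE1 site binds REST, a repressor of neuronal genes outside neurons. RefSeq promoters (GRCm38.p6), from 250 bases before to 50 after the start, were at hand for 14452 of the genes tested, 18109 promoters in all. Both strands were searched for TGACGTCA, the CRE, which reads the same on both, and for TTCAGCACC, the left part of RE1. The CRE letters stood in 2.49% of promoters (2.92% of genes) and the RE1 letters in 0.414% of promoters (0.491% of genes). Among the synaptic release genes with a promoter, 3 of 21 held the CRE (Chgb, Scg2 and Syn1) and 3 of 21 held RE1 (Scg2, Syn1 and Unc13a). Of the neuropeptide genes 3 of 18 and of the dopaminergic genes 2 of 13 held the CRE, and none of either held RE1. Neither motif was found in some other neuronal lists: 0 of 13 cytoskeleton genes, 0 of 16 proneural factors, 0 of 21 receptors and 0 of 23 channels. The CRE stood in 1 of 12 genes of GABA and glycine neurons. RE1 stood in 1 of 13 genes of glutamate, serotonin and cholinergic neurons. Of 18 ventral-lateral midbrain and interneuron factors, 1 held the CRE and 1 held RE1. Some lists not of neurons held the CRE at like shares. These were 2 of 13 simple epithelium genes, 2 of 15 cell cycle inhibitors and p53 targets, and 2 of 15 imprinted growth regulators. The CRE also stood in 2 of 17 neural progenitor genes, while many further lists held neither motif. A match is a description of the letters and not a measured site. The promoters of Syn1 and Scg2, which hold both, and of Cartpt and Th, a neuropeptide gene and a gene of dopamine synthesis that rose, are shown from 250 bases before to 10 bases after the start, on the strand of the gene, with the matches in capitals.
Syn1: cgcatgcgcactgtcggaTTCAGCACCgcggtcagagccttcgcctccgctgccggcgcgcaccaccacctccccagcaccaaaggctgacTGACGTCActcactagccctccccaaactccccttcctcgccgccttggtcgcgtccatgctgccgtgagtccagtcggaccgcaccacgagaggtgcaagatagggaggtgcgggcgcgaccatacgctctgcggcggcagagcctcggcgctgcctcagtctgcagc
Scg2: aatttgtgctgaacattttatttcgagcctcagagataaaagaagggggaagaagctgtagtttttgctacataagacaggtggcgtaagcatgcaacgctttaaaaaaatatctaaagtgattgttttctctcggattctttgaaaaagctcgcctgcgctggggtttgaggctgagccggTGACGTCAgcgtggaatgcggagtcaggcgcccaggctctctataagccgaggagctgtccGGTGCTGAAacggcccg
Cartpt: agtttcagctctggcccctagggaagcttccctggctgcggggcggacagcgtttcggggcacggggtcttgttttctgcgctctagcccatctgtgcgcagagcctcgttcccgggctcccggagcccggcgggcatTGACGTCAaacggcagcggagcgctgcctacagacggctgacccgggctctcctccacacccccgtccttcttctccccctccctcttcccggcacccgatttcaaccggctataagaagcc
Th: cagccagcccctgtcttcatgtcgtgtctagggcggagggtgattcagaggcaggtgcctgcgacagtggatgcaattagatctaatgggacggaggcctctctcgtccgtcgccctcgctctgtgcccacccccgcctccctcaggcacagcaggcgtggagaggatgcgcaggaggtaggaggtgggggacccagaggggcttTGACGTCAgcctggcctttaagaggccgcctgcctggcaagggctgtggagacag
These lie at chrX:20920909-20921168, chr1:79440017-79440276, chr13:99900674-99900933 and chr7:142899986-142900245, all on the minus strand. The CRE begins 159 bases before the start of Syn1, 68 before that of Scg2, 112 before that of Cartpt and 45 before that of Th. The RE1 letters begin 232 bases before the start of Syn1, and in Scg2 they lie on the other strand across the start, beginning 7 bases before it. Having the CRE letters did not fix the direction: of 11 called list members that held them, Nr2e1 (-1.21), Pax6 (-0.84) and Sst (-0.77) fell and the other 8 rose.

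Most proneural and neurogenic factors rose, and most progenitor genes that changed fell. Of 19 proneural and related factors measured, 11 rose and 0 fell (median 0.51), and 9 rose and 0 fell without Dox. St18, a zinc finger factor of young neurons, was at -0.68 and -1.19 and then at 0.43 and 0.59, a rise of 1.45 ± 0.19 (SE). Myt1, of the same family, rose by 1.18 ± 0.14 (SE), and Nhlh1, a bHLH factor of newborn neurons, by 1.0 ± 0.14 (SE). Neurod6, a bHLH factor of cortical projection neurons, was at -0.26 and -0.19 and then at 1.52 and 1.20 with Dox, while without Dox its 4 arrays lay between -0.04 and 0.13. That difference, 1.49 ± 0.16 (SE), passed (adjusted p = 0.00465), but its only probe set was in the lowest class, a median log2 level under 2.

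Of 20 genes of neural progenitors and radial glia, 3 rose and 7 fell with Dox, with a median of -0.17, and 2 rose and 5 fell without it, also with a median of -0.17. The 7 falls became 2 and 3 without replicate 1 or 2 of day 7, and 5 and 6 without those of day 9. Lin28a, an RNA-binding protein of early progenitors, was at 0.01 and 0.02 at day 7 and at -1.51 and -1.44 at day 9, a change of -1.49 ± 0.10 (SE), and it passed with each array left out. Nr2e1 and Pax6, factors of forebrain progenitors, changed by -1.21 and -0.84, and neither passed without replicate 1 or without replicate 2 of day 7 (Nr2e1 -1.14 and -1.27, Pax6 -0.83 and -0.84), nor did Pax6 without replicate 2 of day 9 (-0.65). Nr2e1 was at -1.61 and -1.74 at day 7 and at -2.39 and -3.38 at day 9, where the arrays without Dox held 1.57 to 1.99.

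Fabp7, a fatty acid binding protein of radial glia, went the other way. It was at -1.80 and -1.76 at day 7 and at -0.24 and -0.12 at day 9, a rise of 1.60 ± 0.10 (SE), adjusted p = 4.25e-05. Without Dox its 4 arrays lay between -0.04 and 0.14, so at day 9 the arrays with Dox stood close to those without and at day 7 far below. The difference between the changes was 1.55 ± 0.14 (SE), adjusted p = 0.00224.

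Of the Notch pathway, 3 of 20 genes rose and 6 fell, among them Hes5 (-0.56) and Lfng (-0.54), a target and a glycosyltransferase that modifies the receptor. Fewer of these falls passed with any 1 of the 4 arrays left out. The change of Hes5 then stayed between -0.44 and -0.67. DNA replication genes, which follow dividing cells, had 0 of 25 higher and 8 lower with Dox (median -0.16), but 21 lower without Dox (median -0.47). The 8 falls became 1 and 0 without replicate 1 or 2 of day 7, and 7 and 2 without those of day 9. The difference between the changes passed for 2 of the 25, Mcm2 (0.48) and Mcm3 (0.59), parts of the replicative helicase. Mcm2 passed with 0 and Mcm3 with 1 of the 8 arrays left out in turn. Of 25 mitosis genes, 1 rose and 3 fell, and the falls became 0 without either replicate of day 7 and 1 without replicate 1 of day 9. Mki67, a protein of dividing cells, was the one that rose (0.47), and it did not pass without replicate 2 of day 7 (0.45).

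Glial lineage genes split between the conditions. Of 16 measured, 5 rose and 0 fell with Dox, whereas without Dox 4 rose and 5 fell. Olig2, a bHLH factor of motor neuron and oligodendrocyte progenitors, was at -0.35 and -0.21 at day 7 and at 1.20 and 1.18 at day 9 with Dox. Without Dox it was at 1.54 and 1.26 and then at 0.34 and 0.21, so the order of the days was turned. The change was 1.47 ± 0.20 (SE) with Dox and -1.12 without, and the difference, 2.59 ± 0.28 (SE), adjusted p = 0.00465, was the most positive of all that passed. Sparcl1, a matrix protein of astrocytes, rose by 1.05 with Dox, changed by -0.68 without and differed by 1.73 ± 0.21 (SE). Nfia and Nfib, factors of the start of gliogenesis and of late progenitors, rose by 1.39 and 1.46 with Dox and by 1.02 and 1.01 without. Sox9 rose by 0.80 and 0.81. Some probe sets of these genes went the other way with Dox, at -0.10 and -0.13 for Nfia, -0.06 for Nfib and -0.10 for Sox9.

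Transmitter genes of GABA neurons rose less with Dox than without. Gad1 and Gad2 code for the enzymes that make GABA. Of the 2 probe sets of Gad1, 1 changed by -0.05 with Dox. Gad2 was at -1.10 and -1.03 at day 7 and at 0.23 and 0.05 at day 9 with Dox, and at -0.26 and -0.52 and then at 2.63 and 2.34 without. It rose by 1.21 ± 0.14 (SE) with Dox and by 2.87 without, a difference of -1.66 ± 0.20 (SE), adjusted p = 0.00636. Gad1 rose by 0.70 and 1.58, and its difference of -0.88 (adjusted p = 0.0286) passed with 0 of the 8 arrays left out in turn. Over the list of 14 genes of GABA and glycine neurons, 6 rose and 3 fell with Dox (median 0.20; 1 fell without replicate 1 of day 7), and 10 rose and 1 fell without (median 1.01). The difference was negative and passed for 5 of 14, against 0.995% of all genes, and positive for 1. Calb1, a calcium buffer of interneurons, was at -0.11 and -0.23 and then at -0.70 and -1.12 with Dox, and at -0.38 and 0.11 and then at 1.49 and 1.41 without, a difference of -2.32 ± 0.29 (SE), adjusted p = 0.00733. Lhx1, a homeobox factor of interneurons, rose by 0.74 with Dox and 2.01 without, a difference of -1.26 ± 0.16 (SE). Slc17a6, the vesicular glutamate transporter, rose by 1.36 ± 0.21 (SE) with Dox and by 1.04 without, and the difference did not pass (0.33 ± 0.30 SE).

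Neuropeptide precursors rose in 8 of 23 cases and fell in 1, with 10 and 1 without Dox. Cartpt, the precursor of the CART peptide, was at -1.85 and -1.99 at day 7 and at 0.15 and -0.17 at day 9, a rise of 1.91 ± 0.12 (SE), and its day 7 arrays without Dox were at 0.53 and 0.60. Npy, neuropeptide Y, was at 0.01 and -0.01 and then at 1.94 and 1.83, a rise of 1.88 ± 0.11 (SE) against 1.06 without Dox. Adcyap1, the precursor of PACAP, rose by 1.39 ± 0.21 (SE). Sst, somatostatin, was the one that fell, by 0.77, from -0.64 and -0.77 to -1.60 and -1.34. Pnoc, the precursor of nociceptin, did not pass with Dox (0.05 ± 0.19 SE) and rose by 1.72 without Dox, a difference of -1.67 that passed with 3 of the 8 arrays left out in turn.

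**Figure D3:**
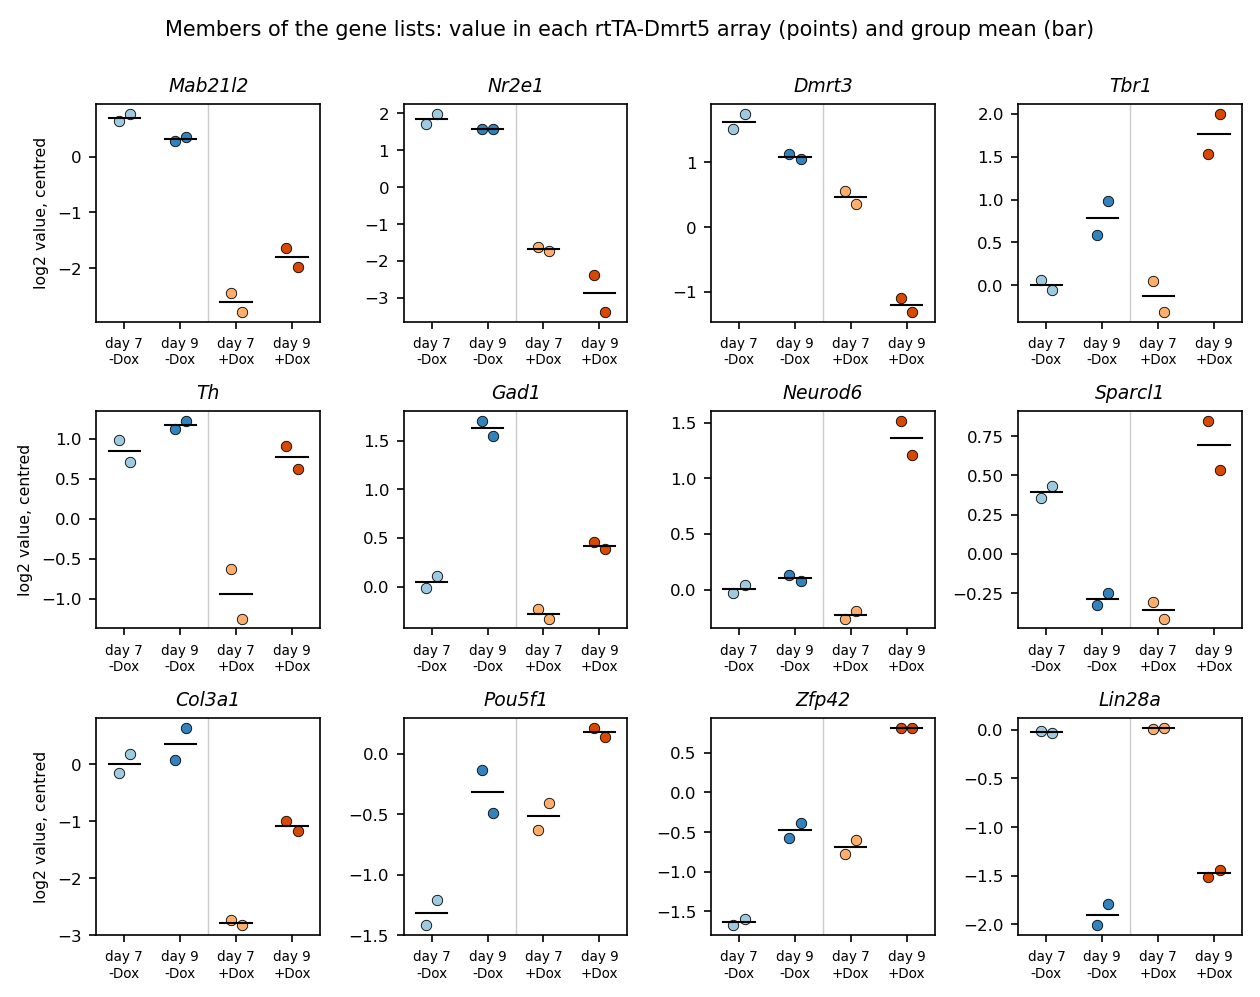
Centred log2 value of 12 list members on each of the 8 rtTA-Dmrt5 arrays; points are arrays and bars are the means of 2. Lin28a falls by a like amount with and without Dox, Th and Col3a1 start lower at day 7 with Dox than without, and Neurod6 changes by 1.59 with Dox against 0.10 without.

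Among receptors, channels and guidance genes, a minority of each list passed, mostly as rises, against 10% of all genes. Of 28 transmitter receptor subunits, 9 rose and 0 fell, and the 9 became 4, 4, 5 and 8 with each array left out in turn, day 7 first. Grin2b and Gria2, subunits of the NMDA and AMPA receptors of glutamate, rose by 1.13 ± 0.16 (SE) and 1.03 ± 0.18 (SE), with 1 probe set of each at -0.18 and -0.07. Of 28 voltage-gated channel genes, 11 rose and 0 fell (6 without replicate 2 of day 7), and Scn3b, a sodium channel beta subunit, rose by 1.27 ± 0.15 (SE). Of 31 axon guidance genes, 12 rose and 2 fell (5 and 1 without replicate 2 of day 7). Plxna2, a semaphorin receptor, was at -1.44 and -1.82 and then at 0.17 and 0.31, a rise of 1.87 ± 0.15 (SE). Of 24 cadherins and protocadherins, 9 rose and 0 fell, with Pcdh11x at -1.58 and -2.09 and then at 0.47 and -0.06, though 1 of its 2 probe sets changed by -0.11. Pcdh8 rose by 0.73 with Dox and changed by -0.68 without, a difference of 1.41 ± 0.18 (SE).

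Regional genes moved in both directions. Of 17 genes of cortical patterning, 7 rose and 4 fell with Dox (median 0.44), and 3 rose and 4 fell without. The direction of this list turned with the level of the genes: of the 11 with a log2 level of at least 8, 3 rose and 5 fell, with a median of -0.26. The 4 falls became 2 without replicate 1 of day 7 or replicate 2 of day 9. Tbr1, a T-box factor of deep-layer cortical neurons, was at 0.05 and -0.31 at day 7 and at 1.53 and 2.0 at day 9, a rise of 1.90 ± 0.26 (SE). Bcl11b, a factor of subcortical projection neurons, rose by 1.67 ± 0.23 (SE), and Lhx2, which specifies cortex, by 1.53 ± 0.21 (SE). None of these 3 differed from the change without Dox by the test (Tbr1 1.12 ± 0.37 SE, Bcl11b 0.55 ± 0.32 SE, Lhx2 0.82 ± 0.30 SE). Sp8, a factor of the anterior and medial cortex, changed by -0.95 ± 0.12 (SE). Nr2f1, a factor of caudal cortex, was at -1.79 and -2.18 and then at -0.95 and -0.84, still below the -0.04 to 0.15 of the 4 arrays without Dox.

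In the list of the cortical hem, 4 of 18 rose and 4 fell, and the falls became 2 without either replicate of day 7. Reln, reelin of Cajal-Retzius cells, rose by 1.54 ± 0.14 (SE), though 1 of its 2 probe sets changed by -0.07. Bmp6, a ligand of the hem, changed by -1.54 ± 0.19 (SE), from 1.53 and 1.66 to 0.19 and -0.08. Of 15 genes of the midbrain-hindbrain boundary, 2 rose and 3 fell. Wnt1, a signal of that boundary and of the midbrain roof and floor, was at 3.30 and 3.25 at day 7 and at 2.06 and 1.40 at day 9, a change of -1.55 ± 0.24 (SE). Its day 9 values were still far above the -0.93 to 0.50 of the 4 arrays without Dox. En1, a homeobox gene of the same region, was at 1.23 and 1.05 and then at 0.54 and 0.39, a change of -0.67 that did not pass without replicate 1 of day 7 (-0.58).

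Of 16 genes of midbrain dopamine neurons, 5 rose and 1 fell (2 and 1 without replicate 2 of day 7). Their median was 0.30, but -0.07 over the 3 of them with a level of at least 8. Th, tyrosine hydroxylase, the rate-limiting enzyme of dopamine synthesis, whose promoter is printed above, was at -0.63 and -1.25 at day 7 and at 0.91 and 0.63 at day 9, a rise of 1.71 ± 0.21 (SE). Without Dox it was at 0.99 and 0.71 and then at 1.12 and 1.23, so the arrays with Dox were lower at day 7 and near the others at day 9. The difference of 1.38 ± 0.30 (SE), adjusted p = 0.0487, passed with 1 of the 8 arrays left out in turn. Of 17 floor plate progenitor genes, 0 rose and 3 fell, and of 13 ventral telencephalon genes 1 rose and 0 fell.

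Secreted signals of the Fgf, Wnt and Bmp families were measured in turn. Of 23 Fgf ligands and feedback genes, 6 rose and 0 fell with Dox, but 3 rose and 6 fell without, and the difference was positive and passed for 4, against 1.43% of all genes. The median with Dox was 0.27, but over the 7 Fgf genes with a level of at least 8 it was -0.09, with 1 rise and 1 fall. Etv4, an Ets factor switched on by Fgf signalling, was at -0.66 and -0.93 and then at 0.28 and 0.06 with Dox, a rise of 0.96 ± 0.14 (SE). Without Dox it changed by -0.63, and the difference was 1.59 ± 0.20 (SE), adjusted p = 0.00723, although 1 of its 2 probe sets changed by -0.24 with Dox. Il17rd, a feedback inhibitor of Fgf signalling also called Sef, rose by 0.47 with Dox and changed by -1.32 without, a difference of 1.78 ± 0.16 (SE). Spry1 and Dusp6, further feedback inhibitors, did not pass with Dox (0.27 and 0.36) and changed by -0.98 and -0.80 without it. Their differences, 1.25 and 1.17, passed with 6 and 1 of the 8 arrays left out in turn.

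Of 19 Wnt targets and secreted regulators, 2 rose and 5 fell (2 to 7 falls with each array left out), and of 19 Wnt ligands 1 rose and 4 fell. Both regulators that rose block Wnt. Wif1, which binds Wnt ligands, was at 0.45 and 0.84 and then at 2.60 and 2.81 with Dox, while its 4 arrays without Dox lay between -0.36 and -0.23. It rose by 2.06 ± 0.15 (SE) and differed by 2.01 ± 0.21 (SE), with its probe set in the class of log2 2 to 4. Notum, an enzyme that inactivates Wnt ligands, was at 0.91 and 0.93 and then at 1.84 and 1.84, a rise of 0.92 ± 0.08 (SE) against a change of -0.40 without Dox. Of 22 genes of Bmp and activin signalling, 2 rose (Inhbb and Bmp2) and 2 fell (Bmp6 and Bmp4), and the difference was positive and passed for 3 (Id3, Fst and Inhbb). The median difference was 0.33 for this list and 0.33 for the Fgf list, against -0.04 for the Wnt targets and 0.05 for the Wnt ligands. Fst, follistatin, which binds activin, changed by 0.33 ± 0.14 (SE) with Dox, which did not pass, and by -1.20 without, a difference of 1.54 ± 0.20 (SE).

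Most genes of the pluripotent state were higher at day 9 in both conditions. Of 20 measured, 14 rose and 0 fell with Dox (median 0.86), and 12 rose and 1 fell without (median 0.67). The difference passed for 0 of 20. With each array left out, 11 to 13 rose. The mean of the list was -0.39 and -0.31 at day 7 and 0.47 and 0.31 at day 9 with Dox, against -0.83 and -0.76 and then -0.21 and -0.29 without. Zfp42, also called Rex1, was at -0.78 and -0.59 and then at 0.81 and 0.82, a rise of 1.5 ± 0.15 (SE). Tdgf1, the Nodal co-receptor Cripto, rose by 1.34 ± 0.11 (SE), and Nanog by 0.91 ± 0.15 (SE), from -0.63 and -0.48 to 0.30 and 0.42. Pou5f1, which codes for Oct4, rose by 0.70 ± 0.16 (SE), and it passed with 1 of the 4 arrays left out. This rise stands beside the rise of neuronal genes in the same arrays, and its part in the other results was not tested.

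Genes of the matrix and markers of other cell types were measured as well. Of 27 collagen and matrix genes, 9 rose and 1 fell with Dox (median 0.30), whereas 1 rose and 7 fell without (median -0.19). Col3a1, a fibrillar collagen, was at -2.74 and -2.83 and then at -0.99 and -1.17, a rise of 1.70 ± 0.24 (SE), below the -0.16 to 0.64 of the 4 arrays without Dox. Col1a1 was at -0.18 and -0.49 and then at 1.30 and 0.90, a rise of 1.44 ± 0.20 (SE). Of 18 genes of mesenchyme and pericytes, 2 rose and 1 fell, with a list mean of 0.15 and 0.14 at day 7 and 0.28 and 0.10 at day 9. Foxc2, a factor of mesenchyme and of the meninges, did not pass with Dox, at 0.17 and 0.30 and then at 0.01 and 0.09. Without Dox it was at -2.30 and -2.40 and then at -4.39 and -4.27, a difference of 1.80 ± 0.22 (SE). Of 17 neural crest genes, 6 rose and 1 fell.

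Of 19 genes of primitive and visceral endoderm, 4 rose and 1 fell, and the 4 became 0, 2, 2 and 3 with each array left out, day 7 first. The mean of that list was 0.44 and 0.54 at day 7 and 0.81 and 0.52 at day 9, so the days overlapped. Of 21 genes of simple epithelium, 3 rose and 1 fell (0 and 1 without replicate 2 of day 7), while 0 rose and 8 fell without Dox. Of 18 vessel and blood genes 0 rose and 1 fell, of 18 mesoderm genes 1 rose and 0 fell, and of 11 microglia and immune genes 0 rose and 0 fell. By the class of level, 4 of the 19 endoderm and 7 of the 21 epithelium genes had a log2 level of at least 8. So did 2 of the 18 vessel and blood genes, 0 of the 18 mesoderm genes and 0 of the 11 microglia and immune genes. The centred values hold no level and the class is coarse, so they cannot show whether any of these markers was off. The part of these cells in the results was not tested.

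Some lists of cell state and metabolism held more called genes than the background and others held few. Of 14 immediate early genes, 5 rose and 0 fell (2 without replicate 2 of day 7 and without replicate 1 of day 9). Fos, a factor switched on within minutes of a stimulus, was at -0.55 and -0.50 and then at 1.34 and 1.68, a rise of 2.03 ± 0.19 (SE), and Egr1 rose by 1.68 ± 0.11 (SE). Fos also rose by 1.79 without Dox. Of 19 genes of glycolysis and hypoxia, 5 rose and 2 fell with Dox, but 10 rose and 0 fell without (medians 0.06 and 0.44). The 5 rises became 3 without either replicate of day 7, and the 2 falls became 0 without replicate 2 of day 7. The difference was negative and passed for 3 of the 19. Pdk1, a kinase that limits entry of pyruvate into mitochondria, was at -0.25 and -0.22 and then at -0.27 and -0.15 with Dox. Without Dox it rose by 1.41, and the difference was -1.39 ± 0.19 (SE), adjusted p = 0.00891. Egln3, an oxygen sensor, rose in both, by 1.33 and 1.17. Of 24 genes of the mitochondrial ribosome and complex I, 3 rose and 0 fell (0 to 2 rises with each array left out), of 19 genes of cholesterol synthesis 0 rose and 1 fell, and of 15 genes of the integrated stress response 1 rose and 1 fell.

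The remaining lists had 3 rises and 4 falls among 19 cell cycle inhibitors and p53 targets, 2 and 4 among 14 genes of epiblast and early neural plate, and 4 and 1 among 14 genes of hypothalamus and eye field. They had 3 and 2 among 19 factors of the ventral-lateral midbrain, 2 and 1 among 19 Hox and hindbrain genes, and 3 and 0 among 13 genes of glutamate, serotonin and cholinergic neurons. Hedgehog signalling had 0 rises and 1 fall of 14, retinoic acid genes 1 and 2 of 15, and imprinted growth regulators 3 and 1 of 19. Several of these counts were lower with an array left out. The 3 cell cycle inhibitors that rose became 0 and the 4 that fell became 2 without either replicate of day 7. The 2 epiblast genes that rose became 0 without either replicate of day 7 or without replicate 2 of day 9, and the 4 hypothalamus and eye field genes became 2 without replicate 2 of day 7. The 3 imprinted genes that rose became 1 without either replicate of day 7. The median of the retinoic acid list was 0.21, but -0.08 without replicate 2 of day 7 and -0.40 over the 3 genes with a level of at least 8.

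**Figure D4:**
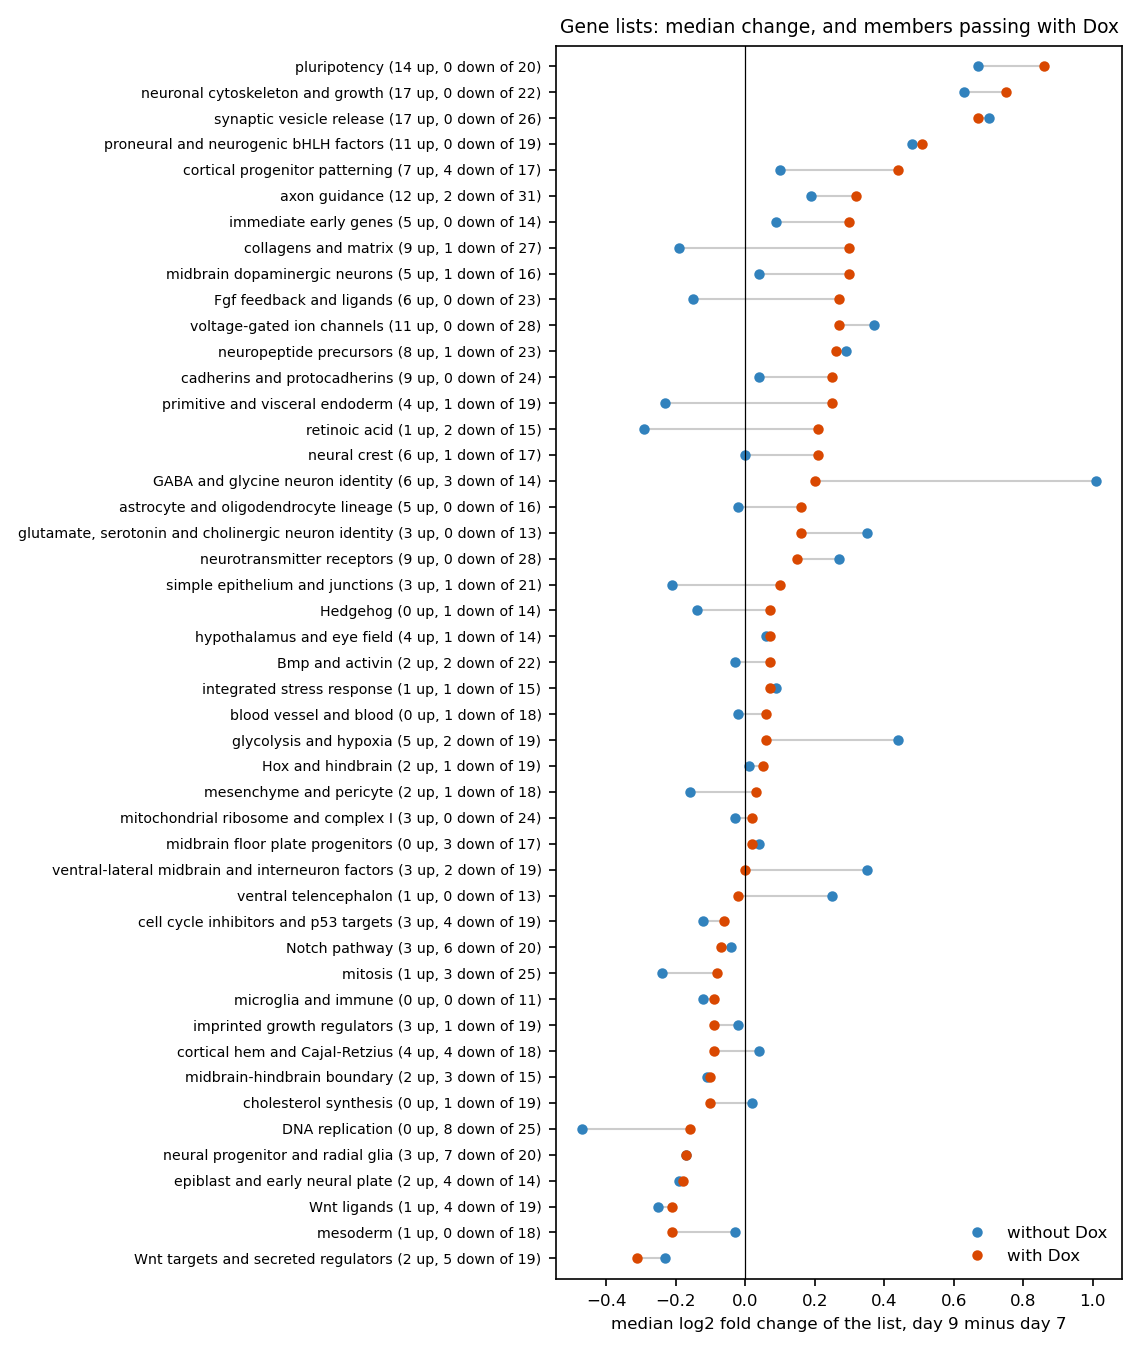
Median log2 change from day 7 to day 9 of each of the 47 gene lists, with Dox in red and without Dox in blue; beside each name stand the members that passed with Dox. Pluripotency (0.86), neuronal cytoskeleton (0.75) and synaptic release (0.67) have the highest medians with Dox, and the blue and red points lie farthest apart for GABA and glycine neuron identity (1.01 against 0.20).

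The change with Dox was then set against the change without Dox, which uses 4 other arrays. Without Dox 2726 genes passed (15%), of which 52.6% were higher at day 9. They were 1433 that rose (7.88%) and 1293 that fell (7.11%), and 428 of them, 2.35% of genes, changed at least 2-fold. In both conditions 1245 genes passed, and 1186 of these moved the same way, 798 up and 388 down. That is 40.2% of the genes called with Dox and 43.5% of those called without. Across the 18193 genes, which are not independent replicates, the changes had a Pearson correlation of 0.526 and a Spearman correlation of 0.396, given as a description. A gene that passed in 1 condition only is not thereby shown to differ: of the 1705 genes called with Dox alone, the difference itself passed for 173.

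The difference between the changes passed for 441 genes, 2.42% of those tested, 260 positive (1.43%) and 181 negative (0.995%). It was at least 2-fold for 119 positive (0.654%) and 83 negative (0.456%). This count was lower with an array left out, except for replicate 2 of day 9 with Dox. It was 104 and 84 without replicate 1 or 2 of day 7 with Dox, 84 and 141 without those of day 7 without Dox, and 116 and 203 without those of day 9 without Dox. It was 220 without replicate 1 of day 9 with Dox and 583 without replicate 2. Of the 73 list members among the 441, 18 passed with each of the 8 arrays left out in turn. These 18 were Calb1, Cdon, Dnmt3b, Etv4, Fabp7, Foxc2, Fst, Gad2, Il17rd, Inhbb, Lhx1, Neurod6, Notum, Olig2, Pcdh8, Pdk1, Sparcl1 and Wif1. Of the genes called in both conditions, 59 moved in opposite directions, among them Olig2, Calb1, Crhbp, Pla2g7 and Mcoln3.

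The most positive differences after Olig2 joined rises with Dox to falls, or to no called change, without it. Pla2g7, which codes for an enzyme that breaks down platelet-activating factor, was at 0.07 and 0.26 and then at 0.71 and 0.48 with Dox. Without Dox it was at 0.02 and 0.22 and then at -1.97 and -2.04, a difference of 2.56 ± 0.16 (SE), adjusted p = 0.000726. Mcoln3, a cation channel of endosomes, rose by 0.58 with Dox and changed by -1.73 without, a difference of 2.32 ± 0.22 (SE). Cntn6, a contactin of neuronal surfaces, rose by 0.98 and changed by -1.32, a difference of 2.29 ± 0.34 (SE) that did not pass without replicate 2 of day 7 with Dox. P2ry14, a receptor of UDP-sugars, rose by 2.13 with Dox and changed by 0.04 without, and its difference (2.10, adjusted p = 0.0457) passed with 1 of the 8 arrays left out. 3110039M20Rik rose by 1.84 and changed by -0.20, a difference of 2.04 ± 0.27 (SE). The probe sets of Cntn6, P2ry14 and 3110039M20Rik lay in the class of log2 2 to 4.

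The most negative differences, beside Calb1, were mostly in genes that rose more without Dox than with it. Sez6l, a neuronal membrane protein, was at 0.67 and 0.60 and then at 0.73 and 0.87 with Dox, and at -0.74 and -0.60 and then at 1.92 and 1.59 without, a difference of -2.25 ± 0.20 (SE), adjusted p = 0.00224. Lamp5, a membrane protein of some neurons, rose by 0.78 with Dox and by 2.82 without, a difference of -2.03 ± 0.18 (SE), in the class of log2 2 to 4. Shox2, a homeobox gene, was at -2.06 and -2.44 and then at -1.26 and -1.76 with Dox. Without Dox it was at -0.25 and -0.40 and then at 2.37 and 2.56, a difference of -2.05 ± 0.29 (SE). Shox2 also had a probe set that changed by -0.28 with Dox. Crhbp, which binds corticotropin-releasing hormone, changed by -1.21 with Dox and rose by 1.11 without, a difference of -2.32 ± 0.27 (SE). 4930481B07Rik changed by -1.86 with Dox and by 0.04 without, and its difference (-1.90) passed with 2 of the 8 arrays left out in turn.

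**Figure D5:**
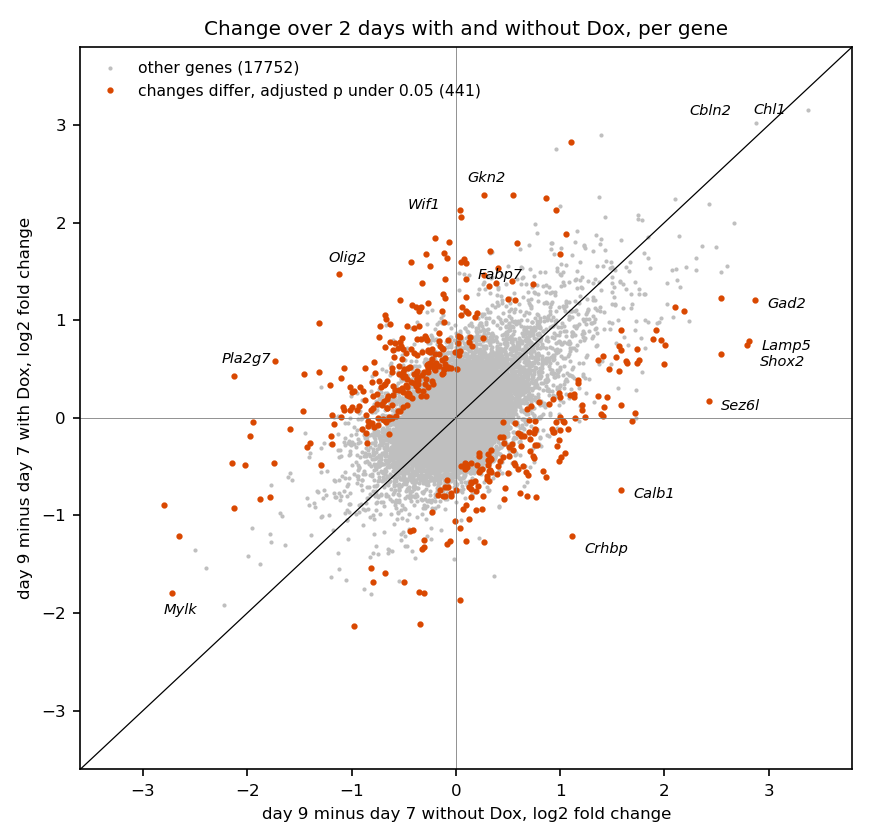
Change from day 7 to day 9 of each of 18193 genes without Dox (horizontal axis) and with Dox (vertical axis), in log2 units; the diagonal marks equal changes, and red points are the 441 genes whose changes differ. Olig2 and Pla2g7 lie in the upper left, Calb1 and Crhbp in the lower right, and Chl1 and Cbln2 close to the diagonal.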

How the data were processed

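RNA of 12 samples, 6 groups of 2, was hybridised to Affymetrix arrays. A NuGEN kit amplified a small input of total RNA, per the labels' protocols. Per the submitters' processing notes, the authors' deposited values come from RMA (version not given), so they are log2 values. Each of the 45101 probe sets is centred on its median over the 12 arrays, with no row median above 5e-07 in size, so the values hold no level. A class of level was read from the spacing of the deposited numbers: 19.9% of probe sets lay at a log2 level of 8 or more, 40.2% at 4 to 8, 34.9% at 2 to 4 and 5.0% under 2. Of the probe sets, 34945 had 1 gene symbol, 932 several and 9160 none, and 64 were controls. For 34741 the gene was found in RefSeq (GRCm38.p6). Each gene's value averages those of its probe sets that lie in its highest class, and 58 named or called list genes had a probe set of the opposite sign.

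The comparison was fitted with limma 3.58.1 in R 4.3.3, with group means over all 12 arrays, eBayes, and Benjamini-Hochberg adjustment over 18193 genes. The text names the 12 largest rises and falls with Dox among genes that passed and whose arrays of the 2 days did not overlap. It also names the 6 largest differences each way among genes that passed, and list members by their role. The members and the 47 lists were chosen with earlier results of these data known. Alternatives were other probe set rules, level filters, array weights, robust fits, array medians set to 0, fewer arrays, each array left out and a replicate block. The fit was tested on simulated data with few changed genes and the same spread in every group, where 4 of 17993 unchanged genes passed. Scan or hybridisation batches are not given in the sources used here.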

Additional observations from a re-analysis of the deposited data

Results flagged for a closer look

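The day 7 to day 9 change differed between the arrays with and without Dox, by the test of the difference itself, for 441 genes. Of the named genes and list members, those that passed are given with the difference (change with Dox minus change without, log2 units). The largest positive differences were in Olig2 (2.59), Pla2g7 (2.56), Mcoln3 (2.32), Cntn6 (2.29), P2ry14 (2.10), 3110039M20Rik (2.04), Gkn2 (2.02), Wif1 (2.01), Foxc2 (1.80), Il17rd (1.78) and Inhbb (1.74). Next came Mab21l1 (1.73), Sparcl1 (1.73), Etv4 (1.59), Fabp7 (1.55), Meox1 (1.54), Fst (1.54), Neurod6 (1.49), Pcdh8 (1.41), Lrrn3 (1.39), Th (1.38) and Wnt5a (1.37). Smaller ones were in Dnmt3b (1.33), Notum (1.32), Erbb3 (1.27), Spry1 (1.25), Unc5c (1.22), Cdon (1.20), Mab21l2 (1.19), Dusp6 (1.17), Lamc1 (1.14), Dsp (1.11) and Epha7 (1.11). Further positive differences were in Id3 (1.11), Efnb2 (1.11), Col2a1 (1.05), Nr2f1 (0.99), Wnt7a (0.97), Epcam (0.96), Mylk (0.93), Cldn6 (0.87), Npy (0.83), Tek (0.79) and Lamb1 (0.77). The smallest included Cdh1 (0.76), Sox7 (0.73), Cdh6 (0.72), Mest (0.71), Egr1 (0.68), Kcna2 (0.65), Cenpe (0.61), Mcm3 (0.59) and Mcm2 (0.48). The most negative were in Calb1 (-2.32), Crhbp (-2.32), Sez6l (-2.25), Shox2 (-2.05), Lamp5 (-2.03), 4930481B07Rik (-1.90), Defa31 (-1.77), Pnoc (-1.67), Gad2 (-1.66), Rab26os (-1.48) and Otx1 (-1.43). They were followed by Pdk1 (-1.39), Lhx1 (-1.26), Gabra3 (-1.24), Tal2 (-1.19), Pomc (-1.18), Metrn (-1.18), Syt4 (-1.17), Scn2a (-1.16), Rspo1 (-1.15), Foxn4 (-1.14) and Tbx6 (-1.13). Smaller negative differences were in Gata2 (-1.13), Unc5d (-1.10), Rab3c (-1.02), Kcnj3 (-1.0), Pou4f1 (-0.99), Ankrd37 (-0.97), Rax (-0.97), Crabp1 (-0.89), Lmx1b (-0.89), Gad1 (-0.88) and Tfap2a (-0.83). The least negative were in En1 (-0.82), Jag1 (-0.79), Pax7 (-0.74) and Bnip3 (-0.68). Of the 73 list members that passed, 55 lost the call without at least 1 of the 8 arrays. With 2 arrays a group, no array could be tested as standing apart from its group.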

How the results depend on the processing

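The counts of called genes moved with the setting. No single named gene or called list member turned its direction in any setting fitted per gene. Single probe sets did differ: 58 of these genes had a probe set of the opposite sign. List medians did turn with only genes of a log2 level of at least 8, which leaves fewer genes. Cortical patterning went from 0.44 to -0.26, retinoic acid from 0.21 to -0.40 and Fgf from 0.27 to -0.09. Dopaminergic neurons went from 0.30 to -0.07 and epiblast from -0.18 to 0.01. Floor plate progenitors went from 0.02 to -0.46 and ventral telencephalon from -0.02 to 0.41. Hedgehog went from 0.07 to -0.03, and Hox and hindbrain from 0.05 to -1.10 on 1 gene. With Dox, 2950 genes passed in the fit over 12 arrays and 1405 in a fit of the 4 arrays alone, which has fewer samples. Without Dox the like counts were 2726 and 2206, so the order of the 2 conditions turned. It also turned with array quality weights, at 2480 genes with Dox and 3628 without. The 2 day 9 arrays with Dox had the lowest weight, 0.595 each. Asking also for a 2-fold change left 410 genes with Dox, 428 without and 202 for the difference. The difference, called for 441 genes, was called for 280 with the mean of all probe sets and for 250 with the 8 rtTA-Dmrt5 arrays alone, and the cause was not tested. Leaving out 1 array at a time gave 1196 to 2443 genes with Dox, 1217 to 1573 without and 84 to 583 for the difference. Same-numbered samples deviated little alike across genes. The correlations of their deviations were 0.070 between the days with Dox, -0.047 between the days without, -0.049 between the conditions at day 7 and 0.109 at day 9. Each rests on only 2 arrays a group, so whether the replicate numbers pair the samples was not settled. With the number as a replicate block 2680 genes passed with Dox, 2493 without and 295 for the difference. The 24 genes named for their change with Dox passed in every setting fitted per gene, although the filter on high levels kept only part of them. The fit of the 4 arrays alone was not run for the difference. Only 2 arrays a group limit the precision: in simulated data 89 of 100 genes changed by 1 log2 unit were found and 25 of 100 changed by 0.5. That simulation changed few genes and gave every group the same spread per gene, so these shares need not hold for the real arrays.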
